A study of Arabidopsis thaliana with 6 samples.

Results

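SnRK2 (SNF1-related protein kinase 2) genes encode plant-specific serine/threonine kinases that carry osmotic stress and abscisic acid (ABA) signals. The hormone binds PYR/PYL receptors, the receptors block clade A PP2C phosphatases, and the kinases, which these phosphatases hold inactive, are released and phosphorylate ion channels and bZIP transcription factors. RAF-like MAP kinase kinase kinases activate SnRK2 proteins by phosphorylation, so transcript levels and kinase activity are separate quantities, and only the former were measured here. Subclass III members (SnRK2.2, SnRK2.3 and SnRK2.6) are strongly activated by ABA and subclass II members (SnRK2.7 and SnRK2.8) weakly. Subclass I members (SnRK2.1, SnRK2.4, SnRK2.5, SnRK2.9 and SnRK2.10) are not activated by ABA.

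The 10 SnRK2 genes of *Arabidopsis thaliana* were fixed by their locus identifiers, not by measured levels, though chosen with earlier results of these data known. They are among 33555 genes listed, of which 24759 had a value above 0 in at least 1 library and were tested. Messenger RNA of rosette leaves was sequenced in 6 libraries, 2 biological replicates in each of 3 conditions. Watered plants that had met no drying (W) were the control, and S1 plants were air-dried once for 2 h. S3 plants were sampled during the third drying of 2 h, after recoveries of 22 h in water. Before any drying, plants were taken out of soil and kept overnight in humid chambers, and W levels are from such plants. S3 plants had been out of soil for longer, so time since removal cannot be told apart from the third stress. All plants were grown in soil at 22 °C with 12 h of light and are given as ecotype Col-0, although the genotype label reads WS for every sample. The samples are whole leaves, so fewer cells of a type and less RNA per cell cannot be told apart.

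Levels are FPKM, sequenced fragments scaled for both transcript length and library size. A gene was called higher or lower when limma's moderated test on log2(FPKM + 1) gave a Benjamini-Hochberg adjusted p of at most 0.05 over all tested genes, the size of its log2 fold change reached 1, and the mean FPKM of 1 of the compared conditions exceeded 0.374, the 25th percentile. Fold changes on this scale understate the change of genes with low levels. The reads of W libraries were longer than those of S1 and S3, and the S3 values come from another run of the authors' quantification than W and S1, so read length cannot be told apart from the W condition and quantification run from the S3 condition. Over 14373 genes whose mean reached 5 FPKM the median log2 fold change was 0.09 in S1/W, 0.01 in S3/S1 and 0.14 in S3/W. Replicates correlated across genes with r between 0.983 and 0.986 on the log2 scale.

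Of the 10 SnRK2 genes, 5 were higher in the third stress than in the first and none was lower, whereas the first stress itself moved 2 of them, SnRK2.7 up and SnRK2.8 down. The genes called higher in S3/S1 were SnRK2.1, SnRK2.3, SnRK2.6, SnRK2.7 and SnRK2.8, at 2.35 to 9.83 times their mean FPKM under S1. In that comparison 5.55% of all tested genes were called higher and 6.71% lower. In S1/W 13.7% of all tested genes were called higher and 12.1% lower, beside 1 and 1 of the 10 kinase genes. In S3/W 15.3% were called higher and 14.4% lower, beside 3 and 0 of the 10, the 3 being SnRK2.1, SnRK2.6 and SnRK2.7. The median log2 fold change of the 10 genes was 0.07 in S1/W, 1.10 in S3/S1 and 0.72 in S3/W, against 0.00, 0 and 0.01 over all tested genes. The adjusted p alone was passed by 5, 8 and 6 of the 10 genes in S1/W, S3/S1 and S3/W, where 53.7%, 32.1% and 57.5% of all genes passed it. At an unadjusted limma p under 0.05, 3 of the 10 were higher and 3 lower in S1/W, where 30.6% and 28.5% of all tested genes were. By the same measure 8 were higher and 0 lower in S3/S1 (21.6% and 21.5% of all genes), and 6 and 0 in S3/W (32.4% and 29.4%). S1 libraries enter both S1/W and S3/S1, with opposite signs, and W libraries enter both S1/W and S3/W.

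**Figure D1:**
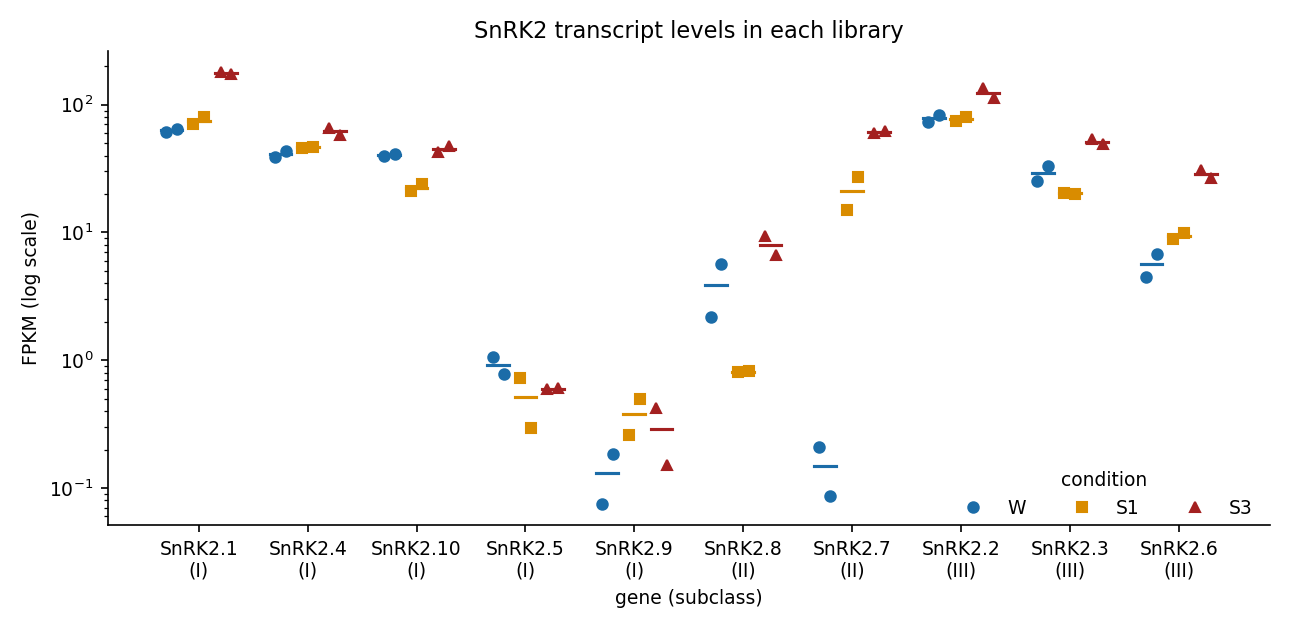
FPKM of each SnRK2 gene on a log axis, with 1 point for each library (circles W, squares S1, triangles S3) and a short line at the mean of the 2 replicates; genes are grouped by subclass, given in parentheses. SnRK2.7 spans the widest range, from 0.0859 to 62.6 FPKM.

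Written with the signs used for dehydration memory, where the first sign compares S1 with W and the second S3 with S1, the kinases fell into 4 classes. These classes rest on the limma calls and may differ from those of the authors, who used another test. SnRK2.7 was [+/+], a class that held 1.34% of all tested genes, and SnRK2.8 was [-/+], a class of 1.31%. SnRK2.1, SnRK2.3 and SnRK2.6 were [=/+], not called in the first stress and higher in the third, a class of 2.89%. The authors list [=/+] genes as late-response genes, apart from memory genes. The other 5 kinases were [=/=], as were 69% of all tested genes.

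SnRK2.7 (AT4G40010, subclass II) lies on chromosome 4 of TAIR10.1 at 18548444 to 18551183 on the minus strand. It was barely detected in watered leaves and was among the more abundant members in the third stress. The FPKM was 0.209 and 0.0859 in the W libraries, 15.0 and 27.3 under S1, and 59.5 and 62.6 under S3. The 3 conditions did not overlap, and the S1 replicates lay further apart than those of S3. Its rank among all genes detected in a condition went from percentile 11.5 in W to 75.1 under S1 and 90.2 under S3. The W values correspond to about 7 and 3 reads, estimated from transcript length and library size. In such estimated reads, scaled for library size, S1 exceeded W 153-fold, with a 95% interval of 83.3 to 320 that covers counting error only. S3 exceeded W 436-fold by the same estimate, with an interval of 237 to 909. The log2 fold change was 4.21 in S1/W (SE 0.28, limma adjusted p = 0.000345) and 5.76 in S3/W (adjusted p = 0.000157). From S1 to S3 it was 1.54 (SE 0.28, adjusted p = 0.0142), a call that was lost when either S3 library was left out (limma adjusted p = 0.0961 and 0.0944), at 1.58 and 1.51.

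SnRK2.8 (AT1G78290, subclass II; chromosome 1, 29457205 to 29459493, minus strand), a kinase known to phosphorylate the immune regulator NPR1, took the opposite course in the first stress. It measured 2.18 and 5.63 FPKM in W, 0.802 and 0.827 under S1, and 9.35 and 6.67 under S3. All S1 values lay below all W values and all S3 values above them, but the W replicates differed widely. The log2 fold change was -1.34 in S1/W (SE 0.376, limma adjusted p = 0.0319), 2.3 in S3/S1 (adjusted p = 0.0107) and 0.96 in S3/W (adjusted p = 0.0823, not called). These calls rest on few libraries. The decrease in S1/W was not called when any 1 library other than W replicate 1 was left out, at a log2 fold change of -0.81 (limma adjusted p = 0.0578) without W replicate 2 and -1.33 to -1.35 without one of the S1 or S3 libraries. The S3/S1 call was lost without any single S1 or S3 library, at 2.08 to 2.51 (limma adjusted p = 0.0582 to 0.0881), and without W replicate 2 S3/W became a call, at 1.49 (adjusted p = 0.0124). SnRK2.8 shares 169 exonic bases, 9.05% of its exons, with AT1G78280 on the other strand, and since the library kit does not mark strand, reads there cannot be told apart. AT1G78280 measured 4.74 and 5.41 FPKM in W, 12.0 and 13.3 under S1, and 8.57 and 9.30 under S3. Under S1 SnRK2.8 itself corresponds to about 51 and 60 estimated reads, so its low level there is uncertain. The part of shared reads in the SnRK2.8 values was not tested.

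Subclass III holds the kinases on which ABA responses depend most. SnRK2.6 (AT4G33950, OPEN STOMATA 1; chromosome 4, 16271745 to 16274825, plus strand) acts in guard cells, where it drives stomatal closure through the anion channel SLAC1. It measured 4.51 and 6.74 FPKM in W, 8.81 and 9.88 under S1, and 30.7 and 26.9 under S3. Each condition lay above the one before without overlap, and the mean under S3 was 5.12 times that in W. The log2 fold change was 0.66 in S1/W (SE 0.191, limma adjusted p = 0.035), below the fold criterion. It was 1.53 in S3/S1 (adjusted p = 0.00512) and 2.19 in S3/W (adjusted p = 0.000581). The S3/S1 call was lost without S1 replicate 1 (1.45, limma adjusted p = 0.0519) or S3 replicate 1 (1.43, adjusted p = 0.0546).

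Guard cell markers went in both directions. The FPKM of 6 guard cell markers together was 123 to 146 in W, 53.0 to 68.5 under S1 and 34.9 to 39.7 under S3. All 6 were above 1 FPKM in some library. AT1G22690 averaged 107 in W, most of the sum there, and 14.7 under S1 and 9.20 under S3. KAT1 averaged 5.38 in W, 33.6 under S1 and 15.0 under S3. In S3/W 1 of the 6 was called higher, the potassium channel gene KAT1, and 2 lower, AT1G22690 and MYB60. The other 3 were not called: FAMA, which specifies guard cell identity, averaged 8.41 in W and 5.59 under S3, SLAC1 2.94 and 4.96, and HT1 1.47 and 1.68. The part of guard cell number in the SnRK2.6 result was not tested.

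SnRK2.3 (AT5G66880; chromosome 5, 26710302 to 26712971, plus strand), which acts with SnRK2.2 in the ABA control of germination and root growth, was lowest under S1 and highest under S3. Its FPKM was 25.4 and 33.4 in W, 20.5 and 20.2 under S1, and 54.0 and 49.0 under S3. No library of one condition overlapped with those of another. In S1/W the log2 fold change was -0.50 (SE 0.146, limma adjusted p = 0.0369), under the fold criterion. In S3/S1 it was 1.3 (adjusted p = 0.00386), and in S3/W 0.80 (adjusted p = 0.00683), again under it.

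SnRK2.2 (AT3G50500; chromosome 3, 18741444 to 18744174, minus strand) was the most abundant member in watered leaves. It measured 73.8 and 83.3 FPKM in W, 74.4 and 79.7 under S1, and 135 and 112 under S3. W and S1 overlapped, with a log2 fold change of -0.03 and a 95% interval of -0.35 to 0.30, while both S3 libraries lay above the other 4. The increases of 0.67 in S3/S1 (limma adjusted p = 0.0161) and 0.64 in S3/W (adjusted p = 0.00901) passed the adjusted p without reaching the fold criterion.

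In subclass I, SnRK2.1 (AT5G08590; chromosome 5, 2783168 to 2786113, plus strand) rose in the third stress to the highest level of any SnRK2 gene. Its FPKM was 61.0 and 64.7 in W, 70.3 and 79.9 under S1, and 179 and 174 under S3. The S3 libraries stood far above the rest, and S1 lay only slightly above W. The log2 fold change was 0.25 in S1/W (SE 0.0954, limma adjusted p = 0.0783), 1.22 in S3/S1 (adjusted p = 0.00154) and 1.48 in S3/W (adjusted p = 0.000268). Both increases were called under every alternative tried.

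SnRK2.4 (AT1G10940; chromosome 1, 3655673 to 3658612, minus strand) and SnRK2.10 (AT1G60940; chromosome 1, 22439063 to 22442221, minus strand) are known to act in roots under salt stress, and both were also abundant in these leaves. SnRK2.4 measured 38.8 and 43.3 FPKM in W, 46.0 and 46.5 under S1, and 65.7 and 58.2 under S3. Each condition exceeded the one before by a small step, of 0.17 on the log2 scale in S1/W (limma adjusted p = 0.21) and 0.41 in S3/S1 (adjusted p = 0.0329). S3/W was 0.58 (adjusted p = 0.00543), below the fold criterion. SnRK2.10 measured 39.8 and 40.9 FPKM in W, 21.0 and 23.8 under S1, and 42.7 and 47.2 under S3. The first stress was thus the low condition for SnRK2.10, without overlap, and S3 was near W. Its log2 fold change was -0.82 in S1/W (SE 0.0991, limma adjusted p = 0.00193) and 0.97 in S3/S1 (adjusted p = 0.00295), both under the fold criterion, and 0.15 in S3/W (adjusted p = 0.258, 95% interval -0.10 to 0.40). The S3/S1 value crossed the criterion when libraries were scaled to the same FPKM sum, at 1.05, with a pseudocount of 0.1, at 1.00, without S1 replicate 2, at 1.06, and without S3 replicate 1, at 1.04.

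SnRK2.5 and SnRK2.9 were the members with low levels throughout. SnRK2.5 (AT5G63650; chromosome 5, 25481334 to 25483799, minus strand) measured 1.05 and 0.776 FPKM in W, 0.728 and 0.297 under S1, and 0.591 and 0.610 under S3. SnRK2.9 (AT2G23030; chromosome 2, 9803492 to 9806731, minus strand) measured 0.0753 and 0.186 in W, 0.260 and 0.497 under S1, and 0.424 and 0.153 under S3, about 2 to 27 reads. Neither passed the adjusted p in any comparison. In S1/W the log2 fold change was -0.35 for SnRK2.5 (95% interval -0.75 to 0.04) and 0.28 for SnRK2.9 (-0.06 to 0.63). In estimated reads SnRK2.9 stood 3.01-fold higher under S1 than in W, with an interval of 1.44 to 7.06 for counting error only, which leaves out the spread between replicates. SnRK2.5 shares 382 exonic bases, 22.7% of its exons, with AT5G63640 on the other strand, which was many times higher, at 7.48 and 8.30 in W and 21.0 and 20.3 under S3. Reads of the shared part cannot be assigned to either gene, so the low level of SnRK2.5 is uncertain.

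**Figure D2:**
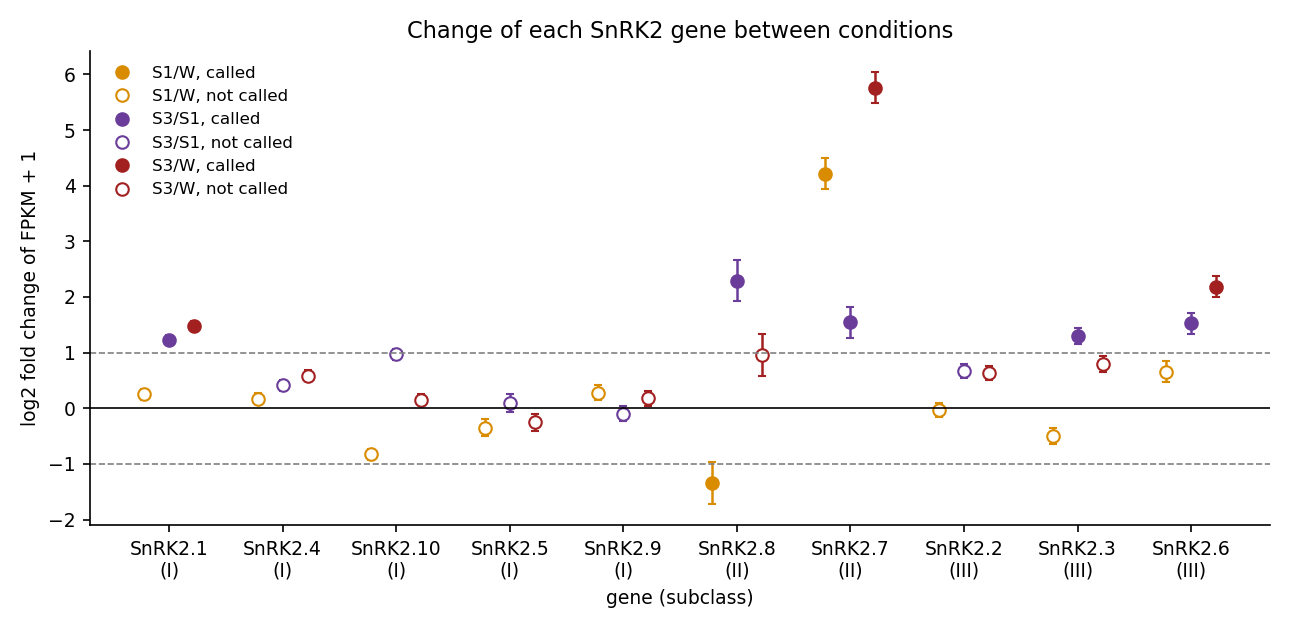
Log2 fold change of FPKM + 1 for each SnRK2 gene in S1/W (orange), S3/S1 (purple) and S3/W (red), with bars of 1 standard error from the fit; filled points were called and dashed lines mark a log2 fold change of 1 in either direction. SnRK2.7 is the largest in S1/W and S3/W, at 4.21 and 5.76, and SnRK2.8 in S3/S1, at 2.3.

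The order of the levels shifted with the stresses. In W it ran SnRK2.2, SnRK2.1, SnRK2.4, SnRK2.10, SnRK2.3, SnRK2.6, SnRK2.8, SnRK2.5, SnRK2.7 and SnRK2.9, and the replicates of SnRK2.4 and SnRK2.10, of SnRK2.6 and SnRK2.8, and of SnRK2.7 and SnRK2.9 overlapped. In S1 SnRK2.7 moved to the fifth place, with replicates so far apart that those of SnRK2.10 and SnRK2.3 lay between them, and SnRK2.1 overlapped with SnRK2.2. In S3 SnRK2.1 led, SnRK2.2 followed, and SnRK2.7 held the fourth place, within the replicate spread of SnRK2.4 in the third. The sum over all 10 genes was 263 ± 22.8 FPKM in W (SD, n = 2), 273 ± 22.1 under S1 and 557 ± 28.6 under S3, so the family sum under S3 was 2.12 times that in W while S1 differed from W by less than the spread.

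Summed levels of subclasses I and III were nearly the same in W and S1 and higher under S3. Subclass I went from 145 ± 6.51 FPKM in W (SD, n = 2) to 145 ± 9.07 under S1 and 284 ± 6.08 under S3. Subclass III went from 114 ± 14 to 107 ± 4.26 and 204 ± 22.7. Subclass II, the smallest in W, was higher under each stress, going from 4.06 ± 2.35 to 22.0 ± 8.77 and 69.1 ± 0.241. Its share of the family sum was 1.51% in W, 7.93% under S1 and 12.4% under S3, nearly all of it from SnRK2.7 in the stressed leaves. SnRK2.2 and SnRK2.1 made up 29.9% and 24.0% of the sum in W, and 22.1% and 31.7% under S3.

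**Figure D3:**
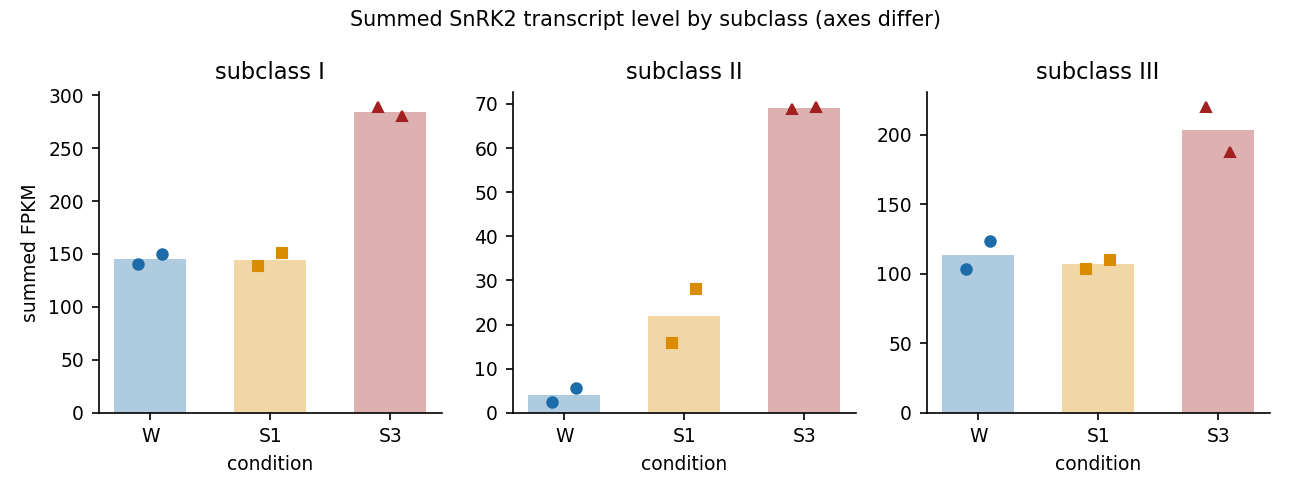
Summed FPKM of the SnRK2 genes of each subclass by condition, on axes that start at 0 and differ between panels; bars are means of 2 libraries and points the single libraries. Subclasses I and III differ little between W and S1 and stand at 284 and 204 FPKM under S3, while subclass II is higher at each step, reaching 69.1.

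Stretches of 300 bases upstream of the annotated transcript start were read from TAIR10.1 (RefSeq) for all 10 genes and searched on both strands for ACGTG, the core of the ABA-responsive element bound by bZIP factors such as ABF3, and for CCGAC, the core of the dehydration-responsive element. The palindrome CACGTG counts as a match on both strands. ACGTG was found in SnRK2.3 (3 matches), SnRK2.7 (2 matches, both in 1 CACGTG) and SnRK2.9 (1 match), and CCGAC in none, where 25.6% and 13.9% of 27443 protein-coding genes hold them in a window of this length. The 3 windows below belong to called [+/+] and [=/+] kinases, 2 with ACGTG and 1 without, with the matches in capitals.
SnRK2.7, chr4:18551184-18551483, minus strand: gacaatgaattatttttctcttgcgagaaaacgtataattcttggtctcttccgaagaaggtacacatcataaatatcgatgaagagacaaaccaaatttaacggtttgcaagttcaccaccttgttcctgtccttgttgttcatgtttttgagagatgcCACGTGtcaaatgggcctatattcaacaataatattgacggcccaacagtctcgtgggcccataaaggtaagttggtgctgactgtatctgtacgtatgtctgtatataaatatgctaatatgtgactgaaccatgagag
SnRK2.3, chr5:26710002-26710301, plus strand: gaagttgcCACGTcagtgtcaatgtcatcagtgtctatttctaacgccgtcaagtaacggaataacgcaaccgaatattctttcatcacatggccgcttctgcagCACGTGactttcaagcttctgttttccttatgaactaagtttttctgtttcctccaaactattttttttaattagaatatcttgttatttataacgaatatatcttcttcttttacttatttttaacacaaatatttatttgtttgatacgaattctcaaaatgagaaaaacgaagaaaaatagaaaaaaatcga
SnRK2.6, chr4:16271445-16271744, plus strand: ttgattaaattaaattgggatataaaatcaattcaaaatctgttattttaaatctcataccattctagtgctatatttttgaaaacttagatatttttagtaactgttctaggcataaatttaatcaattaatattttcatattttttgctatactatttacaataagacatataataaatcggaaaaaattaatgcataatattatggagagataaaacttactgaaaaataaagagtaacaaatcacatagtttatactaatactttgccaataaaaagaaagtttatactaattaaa
The palindrome of SnRK2.7 lies about 135 bases upstream of the start. This window also holds AT4G40011, an annotated gene of unknown function on the same strand, which ends 14 bases before SnRK2.7 and was listed at 0 in every library except S3 replicate 1, at 0.133 FPKM. SnRK2.6, called higher in S3/S1 and S3/W, has no match within 300 bases and 1 ACGTG within 1000. SnRK2.1 has no ACGTG within 1000 bases, a distance within which 54.4% of genes hold it, and 2 CCGAC, where 37.4% of genes hold at least 1 and 10.3% hold 2 or more. SnRK2.9 has a match at 114 bases and was among the least abundant members.

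**Figure D4:**
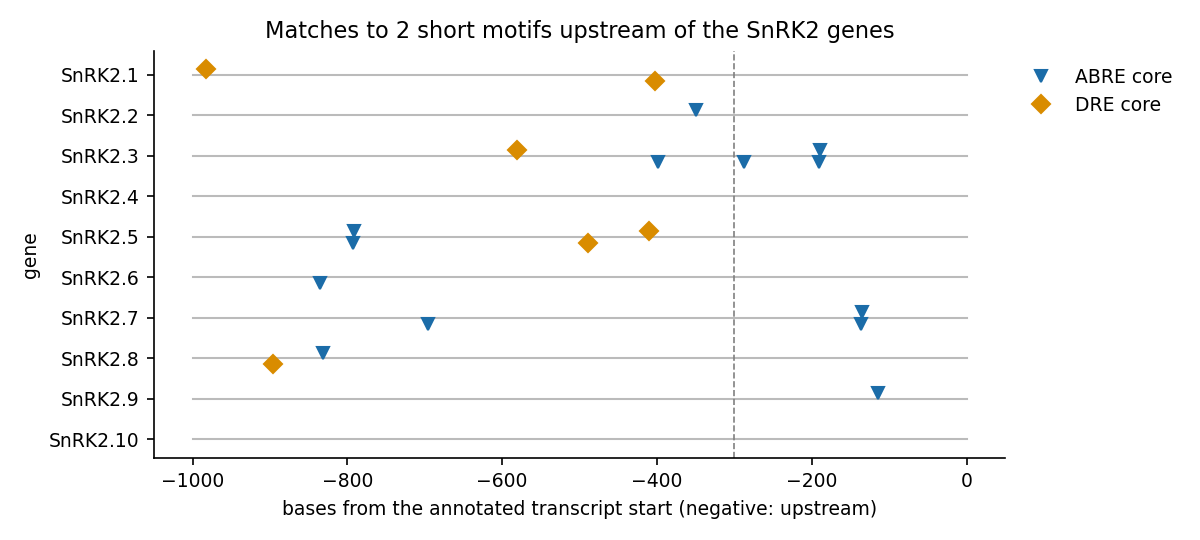
Matches to the 2 motif cores within 1000 bases upstream of the annotated transcript start of each SnRK2 gene, with the strand of the gene above the line and the other strand below; blue triangles are ABRE cores (ACGTG), orange diamonds DRE cores (CCGAC), and the dashed line marks 300 bases. Only SnRK2.3, SnRK2.7 and SnRK2.9 have a match within 300 bases, and SnRK2.4 and SnRK2.10 have none in the whole window.

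Among the steps before and after the kinases, clade A PP2C genes, the phosphatases that inactivate SnRK2 proteins, moved most in the first stress. Of 9, 7 were called higher in S1/W and 8 in S3/W with none lower, at medians of 4.68 and 4.59 on the log2 scale, but 1 in S3/S1, at a median of 0.32. Of all tested genes 13.7% were called higher and 12.1% lower in S1/W, 5.55% and 6.71% in S3/S1, and 15.3% and 14.4% in S3/W. At an unadjusted limma p under 0.05 the phosphatase genes that were lower still numbered 0 in each comparison. By that measure 28.5%, 21.5% and 29.4% of all tested genes were lower in S1/W, S3/S1 and S3/W. HAI1 averaged 0.526 ± 0.263 FPKM in W (SD, n = 2), 487 ± 123 under S1 and 671 ± 42.9 under S3, and HAI2 0.484 ± 0.143, 123 ± 16.7 and 154 ± 3.47. Both genes are known as strongly ABA-induced, and their S3/S1 changes of 0.48 and 0.32 were not called (limma adjusted p = 0.152 and 0.121). AHG1 and HAI3 were listed at 0 in both W libraries. In S3/S1 5 of 10 kinase genes and 1 of 9 phosphatase genes were called higher, and in S1/W 1 of 10 and 7 of 9, and the difference between the lists was not tested.

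Of 14 PYR/PYL receptor genes 11 were tested. In S1/W 3 were called higher and 2 lower, in S3/S1 0 and 3, and in S3/W 2 and 3. The shares of all tested genes, for this list and the next ones, were 13.7% higher and 12.1% lower in S1/W. They were 5.55% and 6.71% in S3/S1, and 15.3% and 14.4% in S3/W. At an unadjusted limma p under 0.05, 0 receptor genes were higher in S3/S1 and 5 lower, where 21.6% and 21.5% of all tested genes were. PYL7 averaged 18.1 ± 0.944 FPKM in W (SD, n = 2), 149 ± 1.57 under S1 and 57.6 ± 7.13 under S3, and PYL4 10.5 ± 1.23, 0.856 ± 0.0111 and 0.696 ± 0.101. The direction in S3/S1 among the receptors that were called, all lower, was opposite to that of the called kinases.

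RAF-like kinases, the group that phosphorylates SnRK2 proteins, were represented by 16 genes. Of these, 5 were called higher and 1 lower in S1/W, 1 and 1 in S3/S1, and 4 and 0 in S3/W. In S3/S1 5.55% of all tested genes were called higher and 6.71% lower. At an unadjusted limma p under 0.05, 10 of the 16 were higher and 2 lower in S3/W, where 32.4% and 29.4% of all tested genes were. AT4G23050 rose most, with log2 fold changes of 4.19 in S1/W and 2.71 in S3/W, and fell by 1.48 in S3/S1. AT5G57610 was called in S1/W (1.88) and S3/W (2.47), as were AT3G06620 (1.78 and 1.07) and AT4G24480 (1.09 and 1.14). AT1G79570 was called only in S1/W (1.79), with S3/S1 just under the fold criterion (-0.98, limma adjusted p = 0.00214). SIS8 (AT1G73660), at -1.25 in S1/W and 1.43 in S3/S1, had the [-/+] signs of SnRK2.8.

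Among 14 genes whose proteins are SnRK2 substrates, 7 were called higher and 1 lower in S1/W, 3 and 1 in S3/S1, and 8 and 1 in S3/W. ABF2, a bZIP factor that SnRK2 proteins phosphorylate in the nucleus, averaged 9.99 ± 0.156 FPKM in W (SD, n = 2), 112 ± 24.7 under S1 and 267 ± 14.9 under S3, and ABF4 14.6 ± 1.49, 25.4 ± 3.33 and 99.6 ± 1.26. In S3/S1 ABF2 (1.26), ABF4 (1.94) and the bHLH factor gene AKS1 (1.16) were called higher and KAT1 (-1.12) lower. ABF3 and ABI5 were called in S1/W (4.07 and 2.87) and S3/W (4.58 and 3.24) but not in S3/S1 (0.51 and 0.37). SLAC1, the guard cell anion channel that SnRK2.6 opens, averaged 2.94 ± 0.119 in W, 3.28 ± 1.05 under S1 and 4.96 ± 0.624 under S3 and was called in no comparison.

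For comparison, none of 6 genes for subunits of SnRK1, the related kinase of energy signalling, was called in S1/W or S3/S1, and 2 were called higher in S3/W. At an unadjusted limma p under 0.05, without the fold criterion, 3 of the 6 were higher and 1 lower in each of the 3 comparisons. Of all tested genes 30.6% were higher and 28.5% lower by this measure in S1/W. The shares were 21.6% and 21.5% in S3/S1, and 32.4% and 29.4% in S3/W. KIN10, a catalytic subunit, averaged 16.7 ± 2.28 FPKM in W, 32.4 ± 1.63 under S1 and 55.2 ± 0.327 under S3 (SD, n = 2; 1.67 in S3/W, limma adjusted p = 0.00029). AKINBETA1 followed at 1.04 in S3/W (adjusted p = 0.00542).

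**Figure D5:**
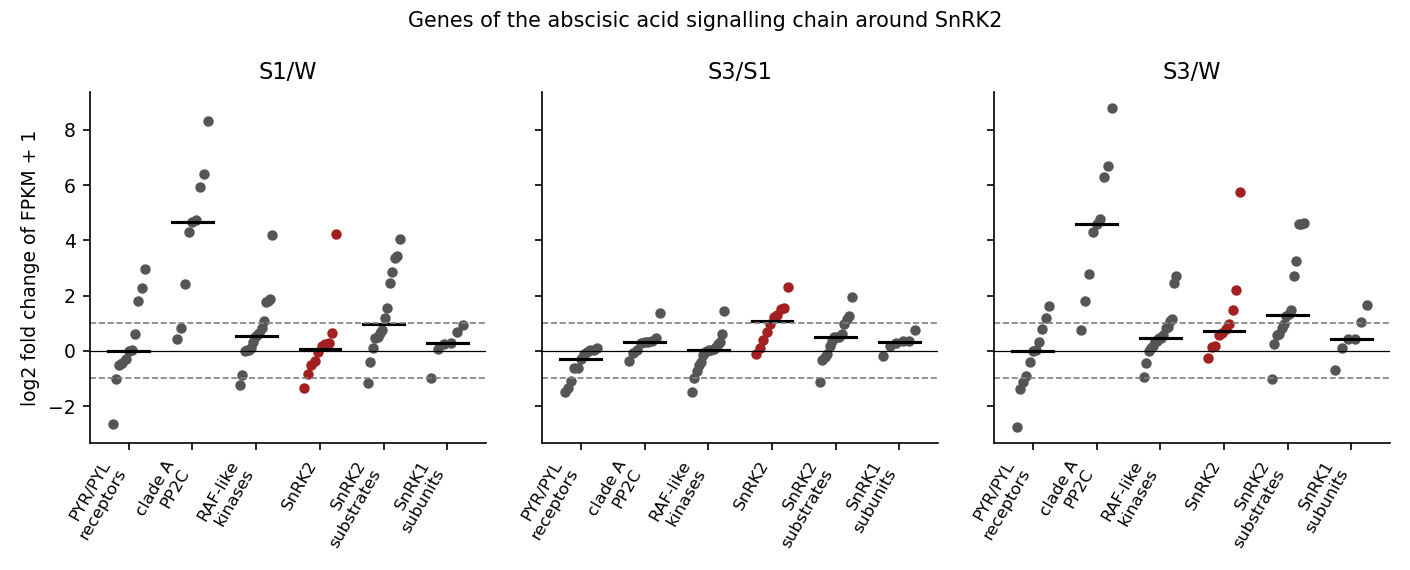
Log2 fold change of FPKM + 1 for each tested gene of 6 lists in S1/W, S3/S1 and S3/W; points are genes, red for SnRK2, short black lines are list medians and dashed lines mark a log2 fold change of 1 in either direction. The SnRK2 median is 0.07, 1.10 and 0.72 in the 3 panels, and that of the PP2C genes 4.68, 0.32 and 4.59.

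SnRK2.7, the member with the largest change in S3/W, was compared with all tested genes by the distance between profiles of log2(FPKM + 1) over the 6 libraries, each centred on its mean. The nearest were AtS40-3 (AT4G18980, distance 0.43), LEA18 (AT2G35300, 0.437), AT4G11910, annotated as STAY-GREEN-like (0.466), and the uncharacterized genes AT4G01985 (0.514) and AT2G35070 (0.525). AtS40-3 averaged 0.0736 FPKM in W, 15.2 under S1 and 47.1 under S3, and AT4G11910 1.17, 35.2 and 118. These genes share with SnRK2.7 a near absence in W and a higher level under S3 than under S1, which is what the measure selects.

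The labelled tissue and other cell types were checked by marker lists. Root and flower or seed markers summed to at most 1.07 FPKM in every library except for root markers under S1, at 5.45 to 6.72, which came from WOX5, while the other 4 root markers were near 0. The sum of 6 mesophyll markers was 10361 to 10946 in W, 21176 to 28190 under S1 and 11680 to 14305 under S3, but RBCS1A and LHCB1.3 were listed at 0 in both W libraries and the other 4 were called lower in S1/W and S3/W. The sum of 2 phloem companion cell markers, SUC2 and AHA3, was 80.8 to 90.5 in W, 404 to 455 under S1 and 394 to 463 under S3. That of 3 epidermis markers was 105 to 143, 297 to 330 and 250 to 292, most of it from FDH, at a log2 fold change of 1.61 in S1/W. ATML1 and PDF1 were called in no comparison, at -0.16 and -0.36 in S1/W and -0.33 and 0.88 in S3/W. SUC2 and AHA3 were called higher in S1/W (2.32 and 2.27) and were at -0.02 and 0.01 in S3/S1. The part of cell type makeup in the SnRK2 results, that of SnRK2.7 included, was not tested.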

How the data were processed

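Rosette leaf mRNA libraries were made with a kit that does not mark strand. The deposited FPKM values per gene and library were computed by the authors with bowtie, tophat (given as TopHat 0.12.8 in the submitters' processing notes) and cuffdiff against TAIR10, after base calling with CASAVA 1.8.2. No further normalization was applied. The depth was 23001565 to 39328849 mapped reads per library. Reads behind a value were estimated as FPKM times the longest annotated transcript times these totals, and the intervals (exact binomial) cover counting error only.

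All 6 libraries were fitted together with limma 3.58.1 in R 4.3.3 on log2(FPKM + 1) with condition as the only term and a variance trend, since cuffdiff needs reads. The residual degrees of freedom were 3. Locus identifiers, not measured levels, fixed which genes were members. Members, lists and comparisons were still chosen with earlier results of these data known. Named were all 10 members, at most 6 called genes with the largest changes of the RAF-like and substrate lists, 2 of each other list, and the 5 nearest profiles. MYB60, FAMA, AT1G22690, SLAC1, HT1, FDH, ATML1, PDF1, AHG1, HAI3, WOX5, RBCS1A, LHCB1.3, SUC2 and AHA3 were named outside that rule. No stretch of 75 bases is shared between member transcripts. Alternatives were other scalings, samples, criteria, pseudocounts and filters, a replicate block, and each library left out. The script was tested on simulated data.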

Additional observations from a re-analysis of the deposited data

How the results depend on the processing

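Among the alternatives, only other scalings, the pseudocount and leaving out a compared library can change a fold change estimate. Under these no called SnRK2 log2 fold change reversed its direction. With no fold change criterion, SnRK2 calls numbered 5 in S1/W, 8 in S3/S1 and 6 in S3/W. Leaving out 1 library in turn gave 1 to 2 calls in S1/W, 3 to 5 in S3/S1 and 3 to 4 in S3/W. Other scalings, the pseudocount, filters, the variance trend and fits on the 4 libraries compared left the counts at 2, 5 and 3, apart from 6 in S3/S1 with the same FPKM sum per library or a pseudocount of 0.1, where SnRK2.10 joined. Whether replicate numbers pair the samples is not known. Same-numbered deviations correlated at 0.155 for W and S1, 0.00196 for W and S3 and -0.0223 for S1 and S3 over 18454 genes. With the replicate block the counts were 2, 5 and 3, and no member changed its call. SnRK2.5 in S3/S1 was -0.11 without S1 replicate 2 against 0.10 in the full fit, and SnRK2.9 was 0.05 without S3 replicate 2 against -0.10, neither past the test. The log2 ratio of summed subclass II was 2.44 in S1/W and 3.2 without W replicate 2, 1.65 in S3/S1 and 2.13 without S1 replicate 2, and 4.09 in S3/W and 4.85 without W replicate 2. The W level of SnRK2.7 rests on about 7 and 3 reads and the SnRK2.9 values on 2 to 27, so these levels carry the widest counting error among the members.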
